A study of Mus musculus with 8 samples.

Results

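Most genes whose symbol begins with Kcn encode subunits of potassium channels. Of the 21368 genes named on the array through RefSeq transcripts, 98 carried such a symbol, 4 of them non-coding. They were read by 137 probes, between 1 and 4 a gene, and were all those that the RefSeq gene table lists under these symbols. RNA from the thoracic aorta of Fto -/- mice and of Fto +/+ mice, 4 samples of each genotype, was read on 8 single-colour expression arrays to ask how loss of Fto alters gene expression in the vessel. Fto encodes an enzyme that takes methyl groups off RNA adenosines. Every sample was labelled as male and of a C57BL6J/NMRI background, from mice in conventional cages with 12 h of day and 12 h of night and free access to food and water, and only RNA of an integrity number above 8 was used. The age of the mice, the allele behind the deletion and any pooling of animals are not given in the sources used here. Nothing in the labels ties each sample to an animal of its own, so the p-values measure the spread between samples.

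Potassium channels set the membrane potential of arterial smooth muscle: when they open, potassium leaves the cell, the membrane hyperpolarises, voltage-gated calcium channels close and the vessel relaxes. Voltage-gated (Kv) and large-conductance calcium-activated (BK) channels are known to oppose constriction. Inward rectifier (Kir) channels include the ATP-sensitive channel that opens on metabolic demand, and two-pore (K2P) channels carry background current. Auxiliary subunits carry no current themselves and alter how the pore-forming subunits open or reach the membrane. Because these data are from whole tissue, fewer cells of a type and less RNA per cell cannot be told apart.

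Fto itself was lower in every Fto -/- sample. Levels are log2 intensities from which the 75th percentile of each array was subtracted. For Fto they were -2.53, -2.19, -2.56 and -2.77 in Fto -/- samples and 0.6, 0.85, 0.47 and 0.35 in Fto +/+ samples. The difference was -3.08 ± 0.15 (SE; limma adjusted p = 0.000403), and the exact two-sided permutation p over 4 against 4 samples was 0.0286, the smallest this design allows. Which exons the deletion removed, and so whether it took the probe's target, is not stated in the labels. The free-text description of each sample names the genotype opposite to its title and genotype field, and the groups here follow the title and genotype field. Against the label of male, both Xist probes were above background on all 8 arrays, and probes of Ddx3y, Kdm5d, Eif2s3y and Zfy1 were above background on 0 of them, while Uty was above it on 1 array by 1 of its 2 probes. Smooth muscle markers were measured for 10 of 10 genes. All arrays lay on 1 slide, with Fto -/- replicates 1, 2 and 3 and Fto +/+ replicate 1 in its row 1 and the other 4 samples in row 2. Rag1, a gene of immature lymphocytes, was read by 2 probes. The one that could be tested was above background on Fto -/- replicates 1, 3 and 4 and Fto +/+ replicate 2, at levels of -2.14 to -1.08. The other was above background on Fto +/+ replicate 4 alone (-3.19), where the tested probe read -5.37, close to the -5.62 and -5.52 of Fto +/+ replicates 1 and 3. Counting either probe, 5 arrays carried Rag1, and counting the tested probe, 4. The share of all probes above background was 45.6% to 47.7% on Fto -/- arrays and 44.5% to 45.2% on Fto +/+ arrays.

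Kcnip4, the gene of a calcium-binding protein that attaches to Kv4 channels, was lower in Fto -/- aorta. For Kcnj15, which encodes the inward rectifier Kir4.2, the probe above background on all 8 arrays fell short of the threshold (limma adjusted p = 0.0611). A dim probe above background on Fto -/- arrays only was past it. That dim probe met the 4-array minimum for testing through those arrays alone, so its p gives no support of its own. The other 34 of the 36 potassium channel genes that could be tested had no probe past an adjusted p of 0.05. The start regions of these 2 genes are shown because they carry the only probes past the threshold; the array reads their transcripts and holds no measurement of the start regions. Each is 300 bases, 250 before to 50 after a start site, from RefSeq on build GRCm38.p6, written 5′ to 3′ on the strand of the gene. RefSeq gives Kcnip4 a pair of start regions here, at chr5:49285610-49285909 and chr5:48599633-48599932 on the minus strand, and Kcnj15 one at chr16:95257308-95257607 on the plus strand. Capitals mark the letters TGGAAA, the core of sites for NFAT (a calcium-regulated transcription factor), or TATAAA, the TATA box, on either strand.
Kcnip4, outer start: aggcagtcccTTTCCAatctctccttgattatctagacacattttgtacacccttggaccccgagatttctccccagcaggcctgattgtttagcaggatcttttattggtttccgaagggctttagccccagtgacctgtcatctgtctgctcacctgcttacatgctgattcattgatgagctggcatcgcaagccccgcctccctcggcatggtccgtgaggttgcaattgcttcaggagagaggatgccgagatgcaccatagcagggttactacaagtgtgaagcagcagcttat
Kcnip4, inner start: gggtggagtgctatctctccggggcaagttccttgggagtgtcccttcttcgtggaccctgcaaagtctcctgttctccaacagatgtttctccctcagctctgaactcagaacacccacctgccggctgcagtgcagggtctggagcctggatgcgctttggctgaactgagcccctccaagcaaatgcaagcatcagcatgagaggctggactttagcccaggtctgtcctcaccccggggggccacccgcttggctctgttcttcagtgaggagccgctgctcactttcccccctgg
Kcnj15: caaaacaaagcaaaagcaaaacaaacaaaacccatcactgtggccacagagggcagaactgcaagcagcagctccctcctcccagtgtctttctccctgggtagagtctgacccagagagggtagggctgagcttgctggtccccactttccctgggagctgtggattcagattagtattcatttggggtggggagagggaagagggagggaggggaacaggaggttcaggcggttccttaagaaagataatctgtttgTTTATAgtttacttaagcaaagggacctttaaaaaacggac

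The outer Kcnip4 region holds TGGAAA on its minus strand from position -240 relative to the start, and the inner one holds neither motif. The Kcnj15 region holds TATAAA on its minus strand from position 10. TGGAAA was found in 21.4% of all 32851 RefSeq start regions of this length and in 20 of the 97 of potassium channel genes (20.6%, 72 genes matched by symbol). TATAAA was found in 13.6% of all and in 5 of the 97 (5.15%). No region shown holds both motifs. A match is a description of letters and was not set against any measured binding.

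**Figure D1:**
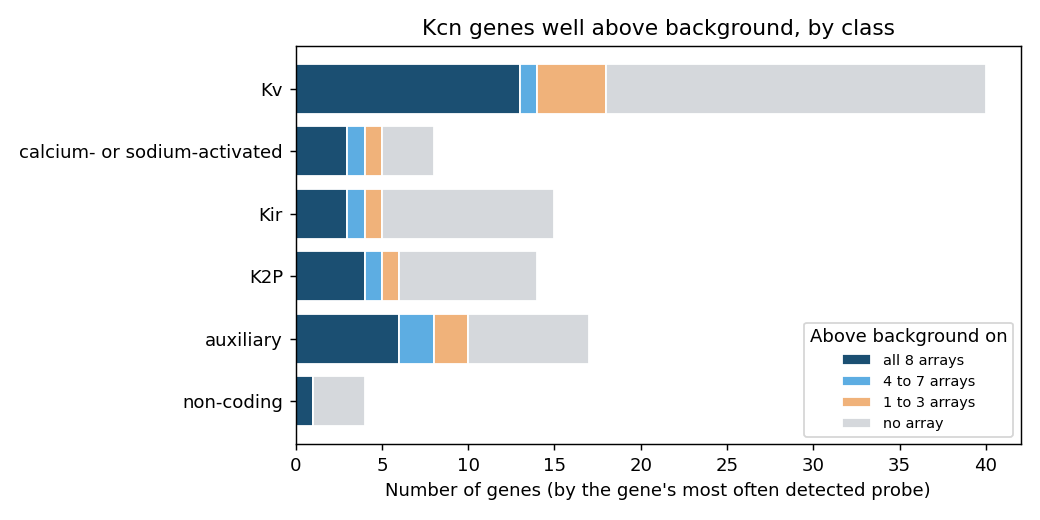
Number of Kcn genes (horizontal axis) in each class, split by the number of the 8 arrays on which the gene's most often detected probe was well above background. Kv subunits were the largest class, with 14 of 40 genes above background on 4 or more arrays.

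Of the 98 genes, 45 were above background on at least 1 array, 36 on 4 or more arrays counted over both genotypes, and 30 on all 8. The 36 genes, 36.7% of the set, went into the test, against 61.1% of all named genes. By genotype, 34 genes were above background on all 4 Fto -/- arrays and 30 on all 4 Fto +/+ arrays. The share of all probes above background was also higher on Fto -/- arrays, at 45.6% to 47.7% against 44.5% to 45.2%. The 53 genes above background on no array are known here only to lie under what the array could measure, which is not absence. Probes differ in how well they bind, so the level of one gene is not set against that of another.

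Among the pore-forming Kv subunits, 14 of 40 genes were tested, among them Kcna1, Kcna4, Kcna5, Kcna6 and Kcna7 of the Shaker (Kv1) group, Kcnc4 (Kv3.4), Kcnd1 and Kcnd3 (Kv4), Kcnh2, Kcnh3 and Kcnh4 of the ether-a-go-go group, Kcnq1 (Kv7.1) and the silent subunit Kcns3. Another 4, Kcna10, Kcnf1, Kcng4 and Kcnq5, were above background on 1 or 2 arrays. Kcna10 was above it on 2 Fto +/+ arrays (-1.46 and -0.61) and 0 Fto -/- arrays. Kcnf1 was above it on Fto +/+ arrays only, and Kcng4 and Kcnq5 on 1 Fto -/- array each. Among the 22 above background on no array were Kcna2, Kcna3, Kcnb2, Kcnc1, Kcnc2, Kcnd2, Kcng1, Kcng2, Kcng3, Kcnh1, Kcnh5, Kcnh6, Kcnh7, Kcnh8, Kcnq3, Kcns1, Kcns2, Kcnv1 and Kcnv2. Kcna3 is the main Kv channel gene of T cells. T cell and thymocyte markers were tested for 9 of 12 genes, at a mean level, centred per gene, of -1.28 to 1.87 on Fto -/- arrays and -1.76 to 1.68 on Fto +/+ arrays. Of these, Cd3d, Rag1, Cd8a, Cd8b1 and Tcf7 were above background on 4 arrays and Cd3g on 5. Cd3e, Lck and Cd4 were above it on all 8.

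The calcium- or sodium-activated channels were represented by Kcnma1, the BK pore, by Kcnn3 and Kcnn4, the small- and intermediate-conductance channels known from endothelium, and by the sodium-activated Kcnt2. Kcnt1 was above background on 3 Fto -/- arrays and 0 Fto +/+ arrays, too few to be tested. Those 3 arrays read -3.28, -3.24 and -2.93, and Fto +/+ replicate 4, at -3.18, lay among them. Kcnn1, Kcnn2 and Kcnu1 were above background on no array. Of 15 Kir genes 4 were tested: Kcnj8, the Kir6.1 pore of the vascular ATP-sensitive channel, Kcnj12 (Kir2.2), Kcnj13 (Kir7.1) and Kcnj15. Kcnj11 (Kir6.2) was above background on 1 array, and Kcnj1, Kcnj2, Kcnj3, Kcnj4, Kcnj5, Kcnj6, Kcnj9, Kcnj10, Kcnj14 and Kcnj16 on none. The K2P genes tested were Kcnk1, Kcnk3, Kcnk4, Kcnk6 and Kcnk13, 5 of 14. Kcnk15 was above background on 1 array, and Kcnk2, Kcnk5, Kcnk7, Kcnk9, Kcnk10, Kcnk12, Kcnk16 and Kcnk18 on none.

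The auxiliary class had 8 of 17 genes tested: Kcnab1, Kcne1l, Kcne3, Kcne4, Kcnip3, Kcnip4, Kcnmb1 and Kcnrg, the last counted here though its product is not a subunit. Kcnmb2 and Kcnmb4, of the BK beta family, were above background on 1 array each, and Kcnab2, Kcnab3, Kcne1, Kcne2, Kcnip1, Kcnip2 and Kcnmb3 on none. Of 4 non-coding genes, Kcnq1ot1, the imprinted RNA transcribed antisense to Kcnq1, was tested, and Kcnd3os, Kcnmb4os1 and Kcnmb4os2 were above background on no array.

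Between genotypes, the probe of highest mean level stood for each gene, and 0 of the 36 tested genes were higher and 1, Kcnip4, was lower in Fto -/- samples (limma, Benjamini-Hochberg adjustment over all 25292 tested probes). Over all 13053 named genes tested, 0.896% were higher and 0.904% lower, 1.8% in all. Over single probes, 1 of 45 was higher, a probe that met the 4-array minimum through its Fto -/- arrays alone, and 1 lower, against 1.66% of all probes past the threshold. At an unadjusted p under 0.05 were 7 of the 36 genes (19.4%), against 20.7% of all named genes. The genotypes did not overlap for 5 genes (13.9%): Kcnip4, Kcnj15, Kcnab1, Kcnn3 and Kcna1, against 14.1% of all named genes. The last 2 shares lie near those of all named genes. The median log2 difference, Fto -/- minus Fto +/+, was 0.13 over the 36 genes and -0.04 over all tested named genes, and 63.9% of the 36 against 43.8% of all had a fitted difference above 0.

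**Figure D2:**
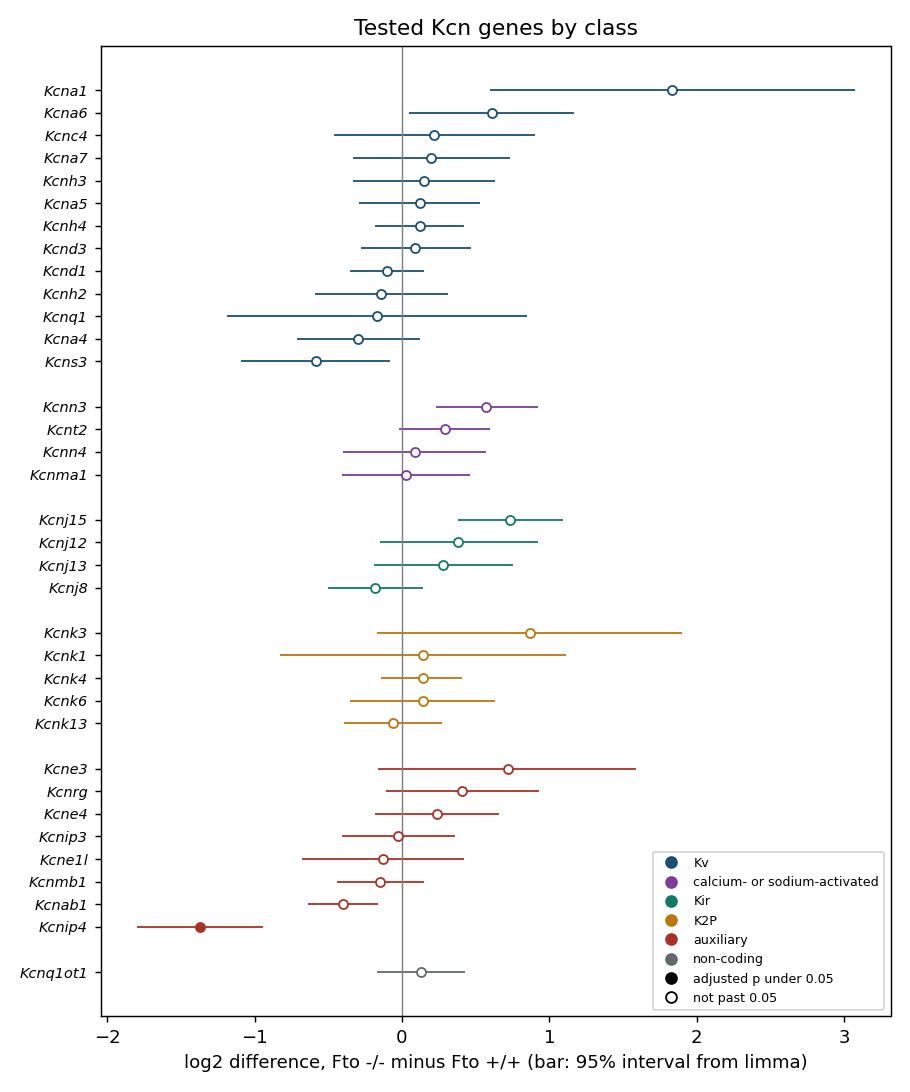
Log2 difference of 35 of the 36 tested Kcn genes, Fto -/- minus Fto +/+ (horizontal axis; bars are 95% intervals from limma), grouped by class. Kcnip4, at -1.37, has the filled point of a gene past the threshold, and the other 34 points drawn are open.

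Kcnip4 encodes KChIP4, one of the potassium channel-interacting proteins, which bind the inner end of Kv4 pore subunits and tune their gating and surface number. Its probe A_52_P319774 (NM_030265, chromosome 5) read -0.4, -0.87, -0.38 and -0.98 in Fto -/- samples and 1.06, 0.76, 0.64 and 0.4 in Fto +/+ samples. All 4 Fto -/- samples lay below all 4 Fto +/+ samples, and the signal was above background on every array, at intensities of 170 to 284 in Fto -/- and 422 to 783 in Fto +/+ samples. The means were -0.66 ± 0.31 in Fto -/- and 0.71 ± 0.28 in Fto +/+ samples (SD, n = 4 each). Kcnip4 thus fell 2.59-fold, a log2 difference of -1.37 ± 0.19 (SE; 95% interval -1.8 to -0.94; limma adjusted p = 0.0166). With slide row as a block the difference was -1.6 (adjusted p = 0.0226). Row 1 alone gave -1.61 (adjusted p = 0.36; 3 Fto -/- arrays against 1 Fto +/+ array) and row 2 alone -1.58 (adjusted p = 0.475; 1 against 3). Without Fto -/- replicate 4 the adjusted p was 0.0515 (-1.26), and over the 8 fits that leave out 1 array the difference ran from -1.48 to -1.25. Without the 5 arrays on which either Rag1 probe was above background it was -1.72 (adjusted p = 0.201; 1 Fto -/- array against 2 Fto +/+ arrays), and without the 4 on which the tested probe was, -1.57 (adjusted p = 0.328; 1 against 3).

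A second Kcnip4 probe, A_51_P396978, matched the same transcript and was dim. It read -4.16, -4.62, -3.65 and -2.81 in Fto -/- samples, of which 1 was above background, and -2.83, -2, -3.5 and -2.89 in Fto +/+ samples, of which 3 were. The genotypes overlapped, since Fto -/- replicate 4 lay above 3 of the Fto +/+ samples. Its difference was -1 ± 0.42 (SE; limma adjusted p = 0.244), and within slide row 2 it was -0.01.

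The channels that KChIP proteins serve did not pass the test. Kcnd3, which encodes the Kv4.3 pore, read 2.05, 2.43, 1.89 and 1.93 in Fto -/- samples and 1.64, 1.93, 2.13 and 2.21 in Fto +/+ samples. The genotypes overlapped, and the difference was 0.09 ± 0.16 (SE; 95% interval -0.28 to 0.47). Kcnd1, the Kv4.1 pore gene, differed by -0.1 (95% interval -0.35 to 0.15), and Kcnip3, a KChIP also known as the transcriptional repressor DREAM, by -0.03 (-0.41 to 0.36). Dpp6, another Kv4 partner, differed by 0.04 ± 0.17 (SE), while Kcnd2, Kcnip1, Kcnip2 and Dpp10 were above background on no array.

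**Figure D3:**
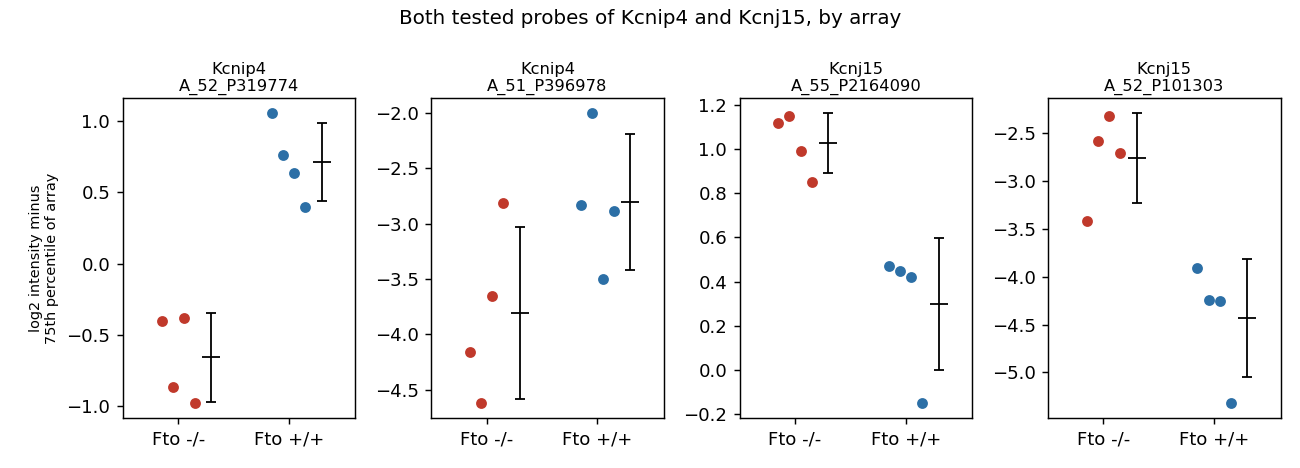
Level of the 2 tested probes of Kcnip4 and of Kcnj15 in each sample (log2 intensity minus the 75th percentile of the array; each panel has its own vertical scale). Points are samples, and the bar beside them is the mean with its SD over 4 samples; only the dim Kcnip4 probe A_51_P396978 has overlapping genotypes.

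Kcnj15 encodes Kir4.2, an inward rectifier known mainly from epithelia such as kidney tubule. Its brighter probe, A_55_P2164090 (NM_019664, chromosome 16), read 1.12, 1.15, 0.99 and 0.85 in Fto -/- samples and 0.47, 0.45, 0.42 and -0.15 in Fto +/+ samples. Every Fto -/- sample lay above every Fto +/+ sample, and Fto +/+ replicate 4 stood lowest. The difference of this probe was 0.73 ± 0.16 (SE; 95% interval 0.38 to 1.09; limma adjusted p = 0.0611), short of the threshold. It passed without Fto +/+ replicate 4 (0.58, adjusted p = 0.0344), and with slide row as a block it was 0.62 (adjusted p = 0.22).

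The second Kcnj15 probe, A_52_P101303, was dimmer and met the 4-array minimum only through its Fto -/- arrays, so a probe chosen this way had to differ and its p gives no support of its own. It read -3.42, -2.59, -2.32 and -2.71 in Fto -/- samples, all above background, and -3.91, -4.24, -4.25 and -5.32 in Fto +/+ samples, none of them well above background. Its means were -2.76 ± 0.47 in Fto -/- and -4.43 ± 0.61 in Fto +/+ samples (SD, n = 4 each), and the fitted difference was 1.67 ± 0.33 (SE; limma adjusted p = 0.0485). Set against the lowest signal above background on each Fto +/+ array, Kcnj15 was at least 1.58-fold higher by this probe in Fto -/- samples. The call was lost in 7 of the 8 fits that leave out 1 array, with differences of 1.37 to 1.89 (adjusted p up to 0.138), and held without Fto +/+ replicate 4. With slide row as a block the difference was 1.51 (adjusted p = 0.185).

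Among the other inward rectifiers, Kcnj8 forms the pore of the vascular ATP-sensitive channel together with the sulfonylurea receptor encoded by Abcc9. Kcnj8 read -0.13, -0.02, -0.29 and 0.22 in Fto -/- samples and 0.16, 0.39, -0.03 and 0 in Fto +/+ samples. The genotypes overlapped, with a difference of -0.18 ± 0.14 (SE; 95% interval -0.5 to 0.14). Abcc9 differed by 0.1 ± 0.18 (SE). Abcc8, the receptor paired with Kcnj11 in other tissues, differed by 0.27 ± 0.17 (SE). Kcnj12, of the strongly rectifying Kir2 group, differed by 0.38 (95% interval -0.15 to 0.92) and Kcnj13 by 0.28 (-0.19 to 0.75), neither past the threshold.

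The BK channel, which couples calcium signals to hyperpolarisation in arterial muscle, showed no call in either subunit. Kcnma1 was read by 4 probes, all above background on all 8 arrays, that matched different transcripts. The probe of highest mean, A_51_P274073, read 1.53, 2.32, 1.45 and 1.67 in Fto -/- samples and 1.56, 1.88, 1.64 and 1.77 in Fto +/+ samples. Fto -/- replicate 2 was the highest of the 8, and the others overlapped. Its difference was 0.03 ± 0.19 (SE; 95% interval -0.41 to 0.46), and those of the other 3 probes were -0.24, 0.16 and 0.22, with adjusted p from 0.37 to 0.663.

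Kcnmb1 encodes the beta1 subunit that raises the calcium sensitivity of BK channels in smooth muscle. It read 3.14, 2.68, 3.07 and 3.26 in Fto -/- samples and 3.21, 3.18, 3.12 and 3.23 in Fto +/+ samples. Fto -/- replicate 2, highest for Kcnma1, was lowest for Kcnmb1. The difference was -0.15 ± 0.13 (SE; 95% interval -0.44 to 0.15; limma adjusted p = 0.573). Of the BK gamma subunit genes, Lrrc38 was measured (0.27 ± 0.18 SE), Lrrc26 and Lrrc52 were above background on no array and Lrrc55 on 1.

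Kcnab1 encodes Kvbeta1, a cytoplasmic subunit that assembles with Kv1 pores. It read 4.02, 4.03, 3.98 and 4.07 in Fto -/- samples and 4.48, 4.64, 4.26 and 4.3 in Fto +/+ samples. The Fto -/- samples lay within 0.1 of each other and all below the Fto +/+ samples. The means were 4.03 ± 0.04 in Fto -/- and 4.42 ± 0.17 in Fto +/+ samples (SD, n = 4 each), and the difference of -0.4 ± 0.11 (SE; 95% interval -0.64 to -0.16) did not pass (limma adjusted p = 0.102). Over all 21 alternative settings it ran from -0.47 to -0.32, with a lowest adjusted p of 0.0523. The smooth muscle marker level overlapped between genotypes, at -0.18 to 0.06 on Fto -/- arrays and -0.01 to 0.23 on Fto +/+ arrays (10 of 10 genes measured). The median difference of these 10 genes was -0.22, with 0 past the adjusted threshold. At an unadjusted limma p under 0.05 were 4, against 20.7% of all named genes. Of those 4, Lmod1 (-0.78), Synpo2 (-0.46) and Cnn1 (-0.32) were lower in Fto -/- samples and Des (0.41) was higher. The part of smooth muscle content in the Kcnab1 value was not tested.

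**Figure D4:**
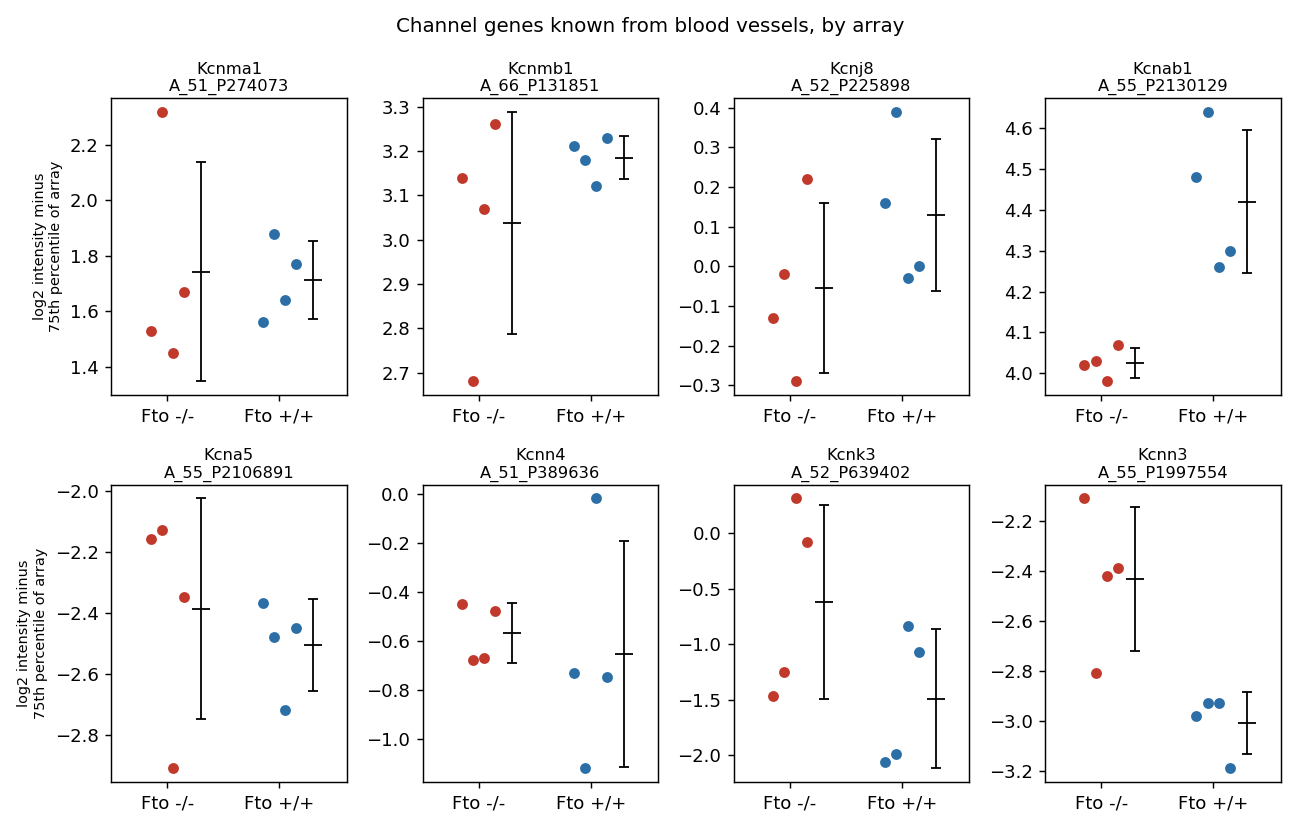
Level of 8 channel genes known from blood vessels in each sample (log2 intensity minus the 75th percentile of the array; each panel has its own vertical scale). Points are samples, with the mean and SD over 4 samples beside them; the genotypes do not overlap for Kcnab1 and Kcnn3, and adjusted p is 0.0968 or above for all 8 genes.

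Of the Kv1 pore genes, Kcna1 had the highest fitted difference of the 36 genes and was dim. It read -2.18, -1.28, -2.24 and -1.99 in Fto -/- samples, all above background, and -3.58, -5.52, -2.96 and -2.96 in Fto +/+ samples, of which 2 were. The genotypes did not overlap, and Fto +/+ replicate 2 lay far below the others. The difference was 1.83 ± 0.54 (SE; 95% interval 0.6 to 3.07; limma adjusted p = 0.129), and with normexp background correction it was 0.81 and passed (adjusted p = 0.0457). Kcna1 is best known from axons. The neuron and Schwann cell markers, of which 7 of 14 genes were measured and Syt1, Tubb3, Nefl, Nefm, Dbh and Sox10 were among those above background on no array, stood at 0.06 to 0.27 on Fto -/- arrays and -0.32 to -0.01 on Fto +/+ arrays. Their part in the Kcna1 value was not tested.

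Kcna5, the Kv1.5 pore gene known from arterial muscle, read -2.16, -2.13, -2.91 and -2.35 in Fto -/- samples and -2.37, -2.48, -2.72 and -2.45 in Fto +/+ samples. Its genotypes overlapped, with a difference of 0.12 ± 0.18 (SE; 95% interval -0.29 to 0.53). Kcna6 (Kv1.6) differed by 0.61 (0.05 to 1.17, limma adjusted p = 0.231), with Fto -/- replicate 1 at 1.83 against 1.27 in the next sample. Without that replicate it differed by 0.37, and within slide row 2 by 0.14. Kcna4 (Kv1.4) differed by -0.3 (-0.71 to 0.12) and Kcna7 by 0.2 (-0.33 to 0.73).

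Kcns3 encodes a silent subunit that conducts only when joined to other Kv pores. It read 1.02, 0.48, 1.15 and 1.2 in Fto -/- samples and 1.53, 1.7, 1.04 and 1.91 in Fto +/+ samples. The overlap rested on Fto +/+ replicate 3, and the difference of -0.58 ± 0.22 (SE; limma adjusted p = 0.205) did not pass.

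Kcnq1, the Kv7.1 pore gene, was read by 2 probes whose fitted differences had opposite signs, -0.17 ± 0.45 and 0.47 ± 0.31 (SE; limma adjusted p 0.866 and 0.439). The first read -0.76, -1.7, -1.47 and -0.97 in Fto -/- samples and -2, -1.38, -1.12 and 0.28 in Fto +/+ samples. Its sign rested on Fto +/+ replicate 4, the highest sample: without it the difference was 0.28, and with slide row as a block it was 0.23, both of the same sign as the second probe. Kcnq1ot1 differed by 0.13 (95% interval -0.17 to 0.43) by one probe and by -0.09 by the other. Over all 8 arrays, 3 of 7 genes with several tested probes had probes of opposite sign, Kcnq1, Kcnq1ot1 and Kcnma1. Of the other Kv pore genes, Kcnc4, Kcnh2, Kcnh3 and Kcnh4 differed by -0.14 to 0.22, with adjusted p from 0.643 to 0.73.

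Kcnn3 and Kcnn4 encode the SK3 and IK1 channels that hyperpolarise endothelium. Kcnn3 read -2.11, -2.81, -2.42 and -2.39 in Fto -/- samples and -2.98, -2.93, -2.93 and -3.19 in Fto +/+ samples, of which 3 were above background. The genotypes did not overlap, but the difference of 0.57 ± 0.15 (SE; 95% interval 0.23 to 0.92) did not pass (limma adjusted p = 0.0968). It was 0.7 and passed without Fto -/- replicate 2 (limma adjusted p = 0.0486). Without the 5 arrays with either Rag1 probe it was 0.15, and without the 4 with the tested one 0.22. Both of these fits keep Fto -/- replicate 2, the lowest Fto -/- sample for Kcnn3, as the only sample of its genotype. Kcnn4 differed by 0.09 (-0.4 to 0.57). Endothelial markers were measured for 10 of 10 genes, at -0.38 to 0.2 on Fto -/- arrays and -0.06 to 0.43 on Fto +/+ arrays, overlapping between genotypes. Kcnt2 differed by 0.29 ± 0.13 (SE; limma adjusted p = 0.284).

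Of the K2P channels, Kcnk3 encodes TASK-1, an acid-sensitive background channel. It read -1.47, -1.25, 0.31 and -0.08 in Fto -/- samples and -2.06, -1.99, -0.84 and -1.07 in Fto +/+ samples. Fto -/- replicates 3 and 4 were the 2 highest, and the genotypes overlapped. The difference was 0.87 ± 0.45 (SE; 95% interval -0.17 to 1.9; limma adjusted p = 0.338). It was 0.56 without Fto -/- replicate 3. Without the 5 arrays with either Rag1 probe it was 0.2, in a fit that keeps Fto -/- replicate 2 as the only sample of its genotype. With slide row as a block it was 1.24 (limma adjusted p = 0.341), and within rows 1 and 2 it was 1.25 and 1.22. With replicate number as a block it was 0.87 (limma adjusted p = 0.0691), though no label ties samples of equal number. The gene is also known from brown fat. Brown adipocyte markers, 8 of 10 measured with Elovl3 and Lhx8 not tested, stood at 0.33, -0.29, 1.37 and 1.01 in Fto -/- samples and -0.91, -1.19, -0.07 and -0.25 in Fto +/+ samples. Their 2 highest values fell in the same Fto -/- replicates 3 and 4, and their part in the Kcnk3 value was not tested. Kcnk1, Kcnk4 and Kcnk6 each differed by 0.14 and Kcnk13 by -0.06, with adjusted p from 0.57 to 0.883.

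The Kcne genes encode single-span subunits of Kv channels. Kcne3 was read by 2 probes, with differences of 0.72 ± 0.39 and 0.94 ± 0.36 (SE; limma adjusted p 0.352 and 0.213). Both overlapped between genotypes, with Fto +/+ replicate 3 among the higher samples. Kcne4, a subunit that joins Kv7 channels in arteries, differed by 0.24 (95% interval -0.18 to 0.66), and Kcne1l by -0.13 (-0.68 to 0.42). Kcnrg, whose product hinders assembly of Kv channels, differed by 0.41 (-0.11 to 0.93).

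Partners outside the Kcn symbols were taken as 24 genes, among them sulfonylurea receptors, Kv4 and BK accessory proteins, scaffolds, ubiquitin ligases and the related Hcn channels. Of these 15 were measured, and 0 were higher and 0 lower by limma at the adjusted threshold, against 1.8% of all named genes, with 2 at an unadjusted p under 0.05, against 20.7% of all named genes. Those were Akap7, a kinase anchoring protein gene (0.82 ± 0.25 SE, adjusted p = 0.131), and Nedd4l, a ubiquitin ligase gene (0.37 ± 0.16 SE, adjusted p = 0.258). Their median difference was 0.04. Prkg1, the cyclic GMP-dependent kinase that acts on BK channels, differed by -0.27 ± 0.12 (SE; adjusted p = 0.268), Hcn2 by -0.04, and Hcn3 and Hcn4 were above background on no array.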

How the data were processed

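RNA of 8 thoracic aorta samples was hybridised to Agilent SurePrint G3 Mouse arrays with Cy3, per the labels' protocols. The deposited scanner files hold the intensity of each spot, background-subtracted by Feature Extraction and with no scaling across arrays, per the file headers. Log2 values fill the series table the authors deposited, and those values are centred per probe on the median of the 8 arrays; its columns followed the scanner values with correlations of 0.983 to 0.997, slopes of 0.958 to 1.01 and column medians of -0.00954 to 0.0048, and how they were normalised is not stated there. All arrays shared 1 slide and 1 scan.

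Control spots and 126 to 189 outlier spots per array were left out, spots of a probe averaged on the log2 scale, and each array scaled to its 75th percentile. A probe was tested where well above background on at least 4 of 8 arrays. Of 55681 probes, 28331 (50.9%) were named through RefSeq transcripts of GRCm38.p6; the array itself is annotated on mm9. Where 1 genotype was nowhere above background, a fold is a bound against the lowest signal above background on each array. Genotypes were compared with limma 3.58.1 in R 4.3.3, without a block, and p-values were adjusted by Benjamini-Hochberg across the 25292 probes; the fit was tested on simulated data. Same-numbered samples did not deviate together (correlations -0.0407 to 0.155). A marker level is the mean of gene-centred levels.

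The members, classes and lists were chosen with earlier results of these data known. Named are members with a probe past 0.05, the 4 of smallest p per class, a list of vascular channel genes, partners past the threshold or else the 2 of smallest p, and Fto. The other members and partners given with values, and all described outside this rule, were chosen after values were seen. Some items are not reported here. Alternatives were background correction (normexp on the median signals, as no mean signal column was present), scaling, filter, series table, slide row, replicate number, array weights and left-out arrays.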

Additional observations from a re-analysis of the deposited data

Results flagged for a closer look

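Fto, the probe standing for each named member, and the second tested probes of Kcnip4 and Kcnj15, 28 probes, were examined in each genotype for a sample far from the other 3 by Dixon's test, 56 groups in all, of which chance alone flags about 1 in 20. In 1 group a sample stood apart. Fto +/+ replicate 4 read -0.15 for the Kcnj15 probe A_55_P2164090, while the other Fto +/+ samples read 0.42 to 0.47, a gap of 0.923 of the range. All 4 Fto -/- samples, at 0.85 to 1.15, lay above each of them.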

How the results depend on the processing

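Limits and settings are given for the 25 named members that were tested. Dim probes limit the set: 53 of 98 genes had none above background, and 45 genes would count as detected with a minimum of 1 array and 30 with all 8, against 36. The Kcnip4 probe A_52_P319774 kept its sign in all 21 alternatives (-1.72 to -1.14) and its call in 15. Without a filter on dim probes its adjusted p was 0.0573 (-1.37), and 0 potassium channel genes or probes were called. Genes lower in Fto -/- also numbered 0, as did probes, within either slide row and without the Rag1 arrays, 5 by either probe or, added after seeing the data, 4 by the tested one. Without either set of Rag1 arrays limma called 0 probes of any gene (4749 and 2294 had an unadjusted p under 0.05). Fto differed by -3.02 and -3.33 within the rows (adjusted p 0.154 and 0.32), by -2.72 without those 5 arrays (0.178), and by -2.66 without those 4 (0.129). Genes higher in Fto -/-, 0 as reported, numbered 2 with normexp (Kcna1 and Kcnj15), 1 with the percentile over detected probes, 2 with array weights (Kcnj15 and Kcnn3) and 1 when any probe of a gene counts. Probes higher numbered 2, 2 and 3 in the first 3 of these, and 0 with quantile normalisation, the filter of all 8 arrays, the series table, slide row as a block, within rows and without the Rag1 arrays. Leaving out 1 array gave 0 to 1 genes higher, 0 to 1 lower, 0 to 2 probes higher and 0 to 1 lower. The Kcnj15 probe A_52_P101303 differed by 0.55 with normexp (adjusted p = 0.0577) and 1.63 with quantile normalisation (0.0787). Of 520 values of uncalled probes, 29 (11 probes, none past the threshold) changed sign, from Kcnma1 in 5 to Kcna5 in 1. The median over potassium channel genes was 0.05 to 0.19 in every setting, and that over all tested probes was -0.08 to 0.04. Both were highest with the percentile over detected probes. The settings reuse the same arrays, so they are not repeated measurements.

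No label ties equal replicate numbers, and not every sample correlated best with its own number. With the replicate block 90 probes were higher and 42 lower in all, against 213 and 206; Kcnip4 differed by -1.37 (adjusted p = 0.035), the Kcnj15 probe A_52_P101303 by 1.67 (0.106), and 0 potassium channel probes were higher and 1 lower. Of all calls, 50.8% were higher in Fto -/- samples, and 63.8% (273 higher, 155 lower) with the percentile over detected probes. Calls over all probes were 33 and 13 with slide row as a block and 777 and 847 with array weights, and without 1 array 55 to 499 higher and 46 to 387 lower, the highest without Fto +/+ replicate 4. The cause was not tested.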
